A study of Homo sapiens with 6 samples.

Results

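E2F factors are DNA-binding proteins that set when the genes of DNA replication and cell division are transcribed, and pocket proteins are the partners that hold them in check. All 10 of these genes named here, E2F1 to E2F8 together with RB1 and RBL1, were found by their symbols among the 56632 genes in the tables, and all 10 were among the 16786 genes with enough counts to be tested. The genes were chosen by name, with earlier results of these data known. Poly(A) RNA had been sequenced from HCT116, an established human colorectal cancer cell line, with 3 libraries from cells given small interfering RNAs (siRNAs) against Matrin3 (siMatrin3) and 3 from cells given a control siRNA (siCTRL). The targeted gene, MATR3, encodes an RNA-binding protein of the nucleus. Cells of both groups were transfected in 2 rounds, and the labels give 72 and then 48 hours of treatment. Per the study's methods, the siMatrin3 reagent was a pool of siRNAs against the same mRNA, the control was a commercial negative control siRNA, cells of both groups were reseeded after the last transfection, and the libraries were biological triplicates. An effect of this pool that does not run through Matrin3 cannot be told apart from the loss of Matrin3, and all libraries came from this line.

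Activator E2Fs (E2F1, E2F2 and E2F3) recruit coactivators to promoters at the entry into S phase, whereas E2F4 and E2F5 mainly bring pocket proteins to promoters of resting and early G1 cells. E2F6 represses without pocket proteins as part of a polycomb complex, and E2F7 and E2F8, the atypical E2Fs, bind DNA without a DP partner and repress late in the cycle. RB1 and RBL1 bind E2Fs until cyclin-dependent kinases phosphorylate them. Much of this control acts on proteins, by phosphorylation and degradation, which mRNA levels do not show.

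Transcription of several E2F genes is itself under E2F control. To show where the letters of a known E2F site lie, the 60 bases just before the start of transcription are given for the 4 genes whose promoter window held them. The windows come from RefSeq on GRCh38.p14 and run from 250 bases before to 50 bases after the start, which is not the build (hg19) of the expression tables. The letters searched were TTTGGCGC, TTTCCCGC, TTTGCCGC and TTTCGCGC on both strands, and matches are in capitals, read in the direction of the gene.
E2F1: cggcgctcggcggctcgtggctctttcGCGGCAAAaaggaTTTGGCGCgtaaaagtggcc
E2F2: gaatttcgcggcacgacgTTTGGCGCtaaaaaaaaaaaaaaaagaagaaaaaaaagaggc
E2F3: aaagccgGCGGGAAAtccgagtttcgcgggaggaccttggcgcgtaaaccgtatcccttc
RBL1: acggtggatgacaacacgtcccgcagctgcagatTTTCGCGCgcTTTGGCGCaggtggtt
These stretches lie at chr20:33686386-33686445 for E2F1, chr1:23531234-23531293 for E2F2 and chr20:37095998-37096057 for RBL1, all on the minus strand, and at chr6:20401819-20401878 for E2F3 on the plus strand. E2F1 holds a match on each strand, from 33 to 26 and from 20 to 13 bases before the start. E2F2 holds a match from 42 to 35 bases and E2F3 a match on the opposite strand from 53 to 46 bases before the start. RBL1 holds matches from 26 to 19 and from 16 to 9 bases before the start.

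A window at the gene's start was found for 7 of the 10 genes, and 4 of those 7 held the letters, against 3.32% of all 35116 windows in the table. The windows of E2F4, E2F6 and E2F7 did not hold these letters. TTTGAA, the core letters of the cell cycle genes homology region that the DREAM complex reads, was searched on both strands and was in 1 of the 7 windows, that of E2F3 from 65 to 60 bases before the start and clear of its E2F letters, against 15.2% of all windows. Of the 4 genes with the letters, E2F2 rose (values below), and E2F1, E2F3 and RBL1 did not pass. Across all tested genes with a window, 7.77% of the 734 with the E2F letters were called higher and 6.68% lower, and of the 10692 without them 5.49% were called higher and 6.71% lower. A match is a description of the letters and not evidence of binding.

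Libraries held 40808173 to 54185650 expected counts, which are reads assigned to genes by estimation, and the 10 genes drew between 536 and 5938 each in a library. Levels are given as TPM, which are scaled by transcript length and library total and so can be compared between genes. MATR3, the check of the knockdown, stood at 186, 180 and 176 TPM in the siCTRL libraries and at 95.2, 112 and 111 TPM in the siMatrin3 libraries. It fell by 0.93 on the log2 scale, or by 47.5% (SE 0.06, edgeR adjusted p = 7.67e-05), so the knockdown was partial at the mRNA level. MATR3 shares exons on the same strand with a second annotated gene of that name, so its counts are less certain. Of 12 matched markers of fibroblasts, leukocytes and endothelium, 4 (COL1A2, LUM, DCN and PTPRC) were at 0 in every library, 5 could be tested and none was called. Their summed level was 14.4 to 16.9 TPM in siCTRL and 16.0 to 19.7 TPM in siMatrin3, nearly all of it from COL1A1 (14.99 ± 1.29 and 16.6 ± 2.17 TPM, SD, n = 3 each), whose part in the results was not tested. Of 9 colon epithelial markers, EPCAM, KRT8, KRT18, KRT19 and CDH1 averaged 240, 1235, 1007, 434 and 74.9 TPM in siCTRL, and CDX2 8.09 TPM. The intestinal genes CDX1 and LGR5 were near 0, and VIL1 stood at about 0.40 TPM in both groups. Of the 7 tested, 4 had a positive log2 fold change. KRT18 was the one called, with a log2 fold change of -0.15, and KRT19 had one of 0.15 without passing. In such bulk samples, fewer cells of a type, or of a cell cycle phase, and less RNA per cell cannot be told apart.

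The comparison asked whether the mRNA levels of E2F factors and pocket proteins differed between siMatrin3 and siCTRL. E2F2, an activator, and E2F8, an atypical repressor, rose by 19.5% and 23.0%, and no other member of the family passed. A fit with the replicate numbers as a block also called E2F1 and E2F4 higher (edgeR adjusted p = 0.0108 and 0.0474). The fold changes below are from edgeR's quasi-likelihood test on expected counts, with p-values adjusted over all 16786 genes and a threshold of 0.05. With it, 2 of 10 genes were called higher and 0 lower, where 5.05% of all genes were called higher and 5.97% lower. DESeq2 and limma on log2(TPM + 1) also called 0 of the 10 lower, where they called 869 of 15109 and 242 of 16786 genes lower. The log2 fold change was positive for 7 of the 10, with a median of 0.08 against 0.00 over all genes tested. In TPM, the groups did not overlap for 2 of the 10 genes, E2F4 and E2F8, where 25.1% of all genes tested had groups that did not overlap.

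**Figure D1:**
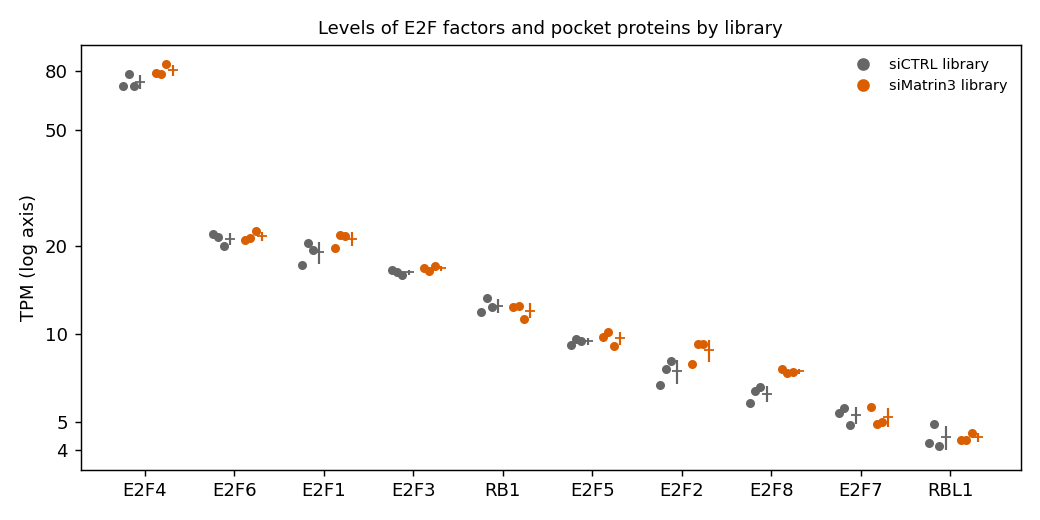
Level of each gene in TPM on a log axis, by library. Points are libraries (grey, siCTRL; orange, siMatrin3), crosses with bars are the mean and SD of 3 libraries, and genes are in order of their siCTRL mean. E2F4 lies far above the rest at 70.9 to 84.4 TPM, and the siMatrin3 libraries lie above the siCTRL libraries without overlap for E2F4 and E2F8.

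E2F4 had the highest level in both groups, at 73.4 ± 4.06 TPM in siCTRL (SD, n = 3). It was followed by E2F6 (21.2 ± 1.04 TPM), E2F1 (19.1 ± 1.68 TPM), E2F3 (16.3 ± 0.315 TPM), RB1 (12.5 ± 0.693 TPM), E2F5 (9.44 ± 0.243 TPM), E2F2 (7.45 ± 0.728 TPM), E2F8 (6.25 ± 0.416 TPM), E2F7 (5.28 ± 0.350 TPM) and RBL1 (4.43 ± 0.430 TPM). Neighbours in this order did not overlap between libraries, except that E2F6 overlapped with E2F1 and E2F7 with RBL1. The order was the same in siMatrin3, where E2F6 again overlapped with E2F1, E2F5 overlapped with E2F2, and E2F7 and RBL1 no longer overlapped. The 8 E2F genes together gave 158 ± 6.31 TPM in siCTRL and 171 ± 4.99 TPM in siMatrin3. Of that sum, E2F4 and E2F5 made up 52.3 ± 0.620% in siCTRL and 52.6 ± 0.469% in siMatrin3, and the 3 activators 27.0 ± 0.845% and 27.4 ± 0.709%. E2F6 made up 13.4 ± 0.809% and 12.7 ± 0.104%, and the atypical pair 7.29 ± 0.0903% and 7.40 ± 0.472%. The make-up of the family at the mRNA level thus differed between the groups by less than 1 percentage point in each class.

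Among the activators, E2F2 rose. E2F2, which acts with E2F1 and E2F3 at the promoters of replication genes, stood at 6.67, 7.57 and 8.11 TPM in the siCTRL libraries and at 7.92, 9.22 and 9.25 TPM in the siMatrin3 libraries. Replicate 1 was the lowest of its group in both, and the siMatrin3 replicate 1 lay below the siCTRL replicate 3, so the groups overlapped in TPM. The log2 fold change was 0.26 (SE 0.06, 95% interval 0.13 to 0.39, edgeR adjusted p = 0.0193), an increase of 19.5%. The call was lost without siMatrin3 replicate 2 or 3, where the edgeR adjusted p was 0.0753 and 0.0804, with log2 fold changes of 0.23 and 0.25. It was also lost with an offset for transcript length (edgeR adjusted p = 0.109) and with limma on log2(TPM + 1) and log2(TPM + 0.1), at adjusted p of 0.247 and 0.291.

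E2F1, the activator best known for driving entry into S phase, stood at 17.2, 20.5 and 19.5 TPM in siCTRL and at 19.8, 22.0 and 21.8 TPM in siMatrin3. Replicate 1 was again the lowest of each group, and the groups overlapped. Its log2 fold change was 0.17 (SE 0.06, 95% interval 0.04 to 0.31), with an edgeR adjusted p of 0.0985. E2F3, which has 2 annotated transcripts here, differed least among the activators in relative terms, with 16.6, 16.3 and 16.0 TPM in siCTRL and 16.8, 16.5 and 17.1 TPM in siMatrin3. The groups overlapped, and its log2 fold change was 0.07 (95% interval -0.01 to 0.16, edgeR adjusted p = 0.276). Neither E2F1 nor E2F3 was called, and the interval for E2F1 includes the estimate for E2F2.

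Of the pair that works with pocket proteins in resting cells, E2F4 stood at 70.9, 78.0 and 71.1 TPM in siCTRL and at 78.3, 78.2 and 84.4 TPM in siMatrin3. All 3 siMatrin3 libraries were above all 3 siCTRL libraries, with 78.04 TPM in siCTRL replicate 2 next to 78.17 TPM in siMatrin3 replicate 2. The log2 fold change was 0.13 (SE 0.04, 95% interval 0.04 to 0.23), with an edgeR adjusted p of 0.0783. DESeq2, the tool the study used, gave a log2 fold change of 0.14 and an adjusted p of 0.0339 for E2F4, so the call on this gene depended on the tool. E2F5 overlapped between groups, with 9.17, 9.64 and 9.51 TPM in siCTRL and 9.77, 10.2 and 9.14 TPM in siMatrin3 (log2 fold change 0.08, 95% interval -0.06 to 0.22, edgeR adjusted p = 0.490). Exons of E2F5 overlap those of RBIS and of a noncoding gene on the opposite strand.

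E2F6, which represses through a variant polycomb complex, stood at 22.0, 21.5 and 20.02 TPM in siCTRL and at 21.0, 21.3 and 22.5 TPM in siMatrin3. The groups overlapped, and the estimate was near 0 with a narrow interval (log2 fold change -0.02, 95% interval -0.11 to 0.07, edgeR adjusted p = 0.836). Its sign differed between scales, since the mean in TPM was slightly higher in siMatrin3 (21.6 ± 0.799 TPM) than in siCTRL.

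Of the atypical E2Fs, E2F8 rose and E2F7 was not called. E2F8 stood at 5.79, 6.36 and 6.60 TPM in siCTRL and at 7.60, 7.36 and 7.40 TPM in siMatrin3. All 3 siMatrin3 libraries were above all 3 siCTRL libraries, and the siMatrin3 libraries differed little among themselves. The log2 fold change was 0.30 (SE 0.06, 95% interval 0.17 to 0.43, edgeR adjusted p = 0.0122), an increase of 23.0% and the largest of the 10 genes. E2F8 kept its call when any single library was left out, and lost it without replicate 1 of both groups (edgeR adjusted p = 0.0836, log2 fold change 0.24). The call was also lost with the length offset (edgeR adjusted p = 0.0616) and with limma on log2(TPM + 1) and log2(TPM + 0.1), at adjusted p of 0.1065 and 0.1296. Exons of E2F8 overlap those of the antisense gene CSRP3-AS1 on the opposite strand. E2F7, its closest relative, stood at 5.35, 5.59 and 4.90 TPM in siCTRL and at 5.63, 4.93 and 5 TPM in siMatrin3, and the groups overlapped. Its log2 fold change was -0.03 (95% interval -0.16 to 0.11, edgeR adjusted p = 0.845), so the upper end of its interval lay below the lower end of that of E2F8.

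RB1, the pocket protein that restrains the activators, stood at 11.9, 13.3 and 12.4 TPM in siCTRL and at 12.4, 12.5 and 11.2 TPM in siMatrin3. The groups overlapped, and the log2 fold change was -0.07 (SE 0.04, 95% interval -0.15 to 0.01, edgeR adjusted p = 0.234). RBL1, the p107 pocket protein, stood at 4.23, 4.92 and 4.13 TPM in siCTRL and at 4.33, 4.35 and 4.60 TPM in siMatrin3, with a mean of 4.43 TPM in both groups. Its log2 fold change was 0.04 (95% interval -0.10 to 0.17, edgeR adjusted p = 0.752). Exons of RBL1 overlap those of a noncoding gene on the opposite strand. The third pocket protein, RBL2 (p130), is counted below with the MuvB and DREAM genes, and was 18.2 ± 0.630 TPM in siCTRL and 17.8 ± 0.155 TPM in siMatrin3 (log2 fold change 0.01, edgeR adjusted p = 0.882). It is named here after its values were seen. None of the 3 pocket proteins was called.

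**Figure D2:**
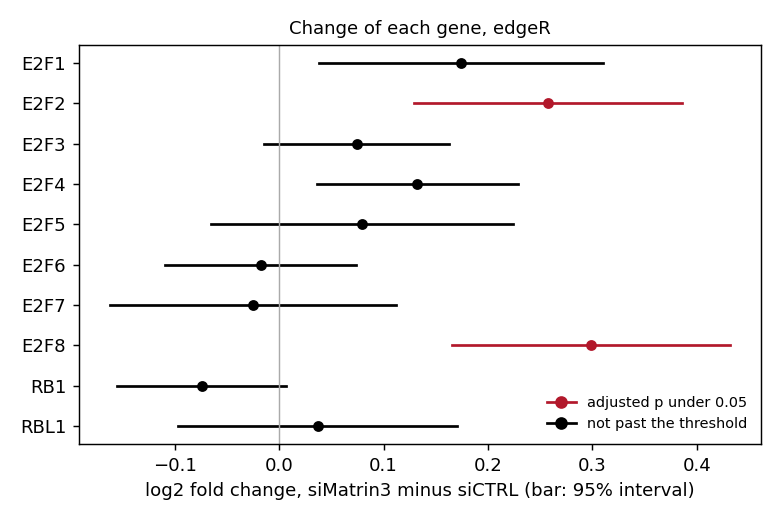
Log2 fold change of each gene, siMatrin3 minus siCTRL, from edgeR, with its 95% interval as a bar (3 libraries a group). E2F2 at 0.26 and E2F8 at 0.30 are past the threshold (red), the intervals of E2F1 and E2F4 lie above 0 without passing after adjustment, and the other 6 intervals include 0.

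Ratios between genes of the same library take out what is common to both, such as depth. They were chosen after the values were seen and are given without a test, since with 3 libraries against 3 an exact permutation test cannot give a p under 0.1. E2F8 over E2F7 had log2 TPM ratios of 0.11, 0.19 and 0.43 in siCTRL and of 0.43, 0.58 and 0.57 in siMatrin3. The groups nearly met, at 0.4297 in siCTRL replicate 3 and 0.4329 in siMatrin3 replicate 1, and their means differed by 0.28. E2F8 over RB1 had a mean of -1.003 in siCTRL and -0.69 in siMatrin3, a difference of 0.31 with groups that did not overlap. E2F1 over RB1 went from 0.60 to 0.81, a difference of 0.21, also without overlap. Its groups nearly met too, at 0.654 in siCTRL replicate 3 and 0.674 in siMatrin3 replicate 1. The ratios of E2F2 to E2F3, to E2F1 and to RB1 were higher on average in siMatrin3 by 0.20, 0.09 and 0.30, and their groups overlapped. Of these 6 ratios, that of E2F2 to E2F1 differed least between the group means. How often ratios of other gene pairs do not overlap between groups was not computed, so these ratios have no background to be read against.

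**Figure D3:**
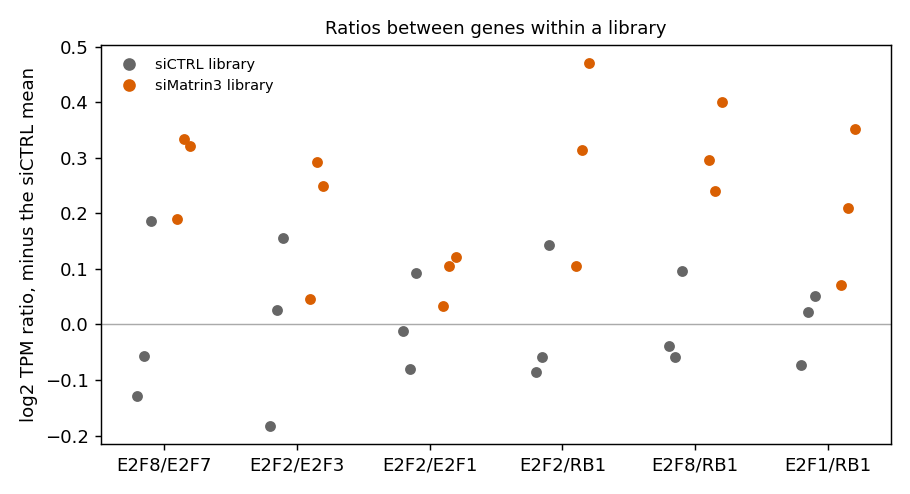
Log2 TPM ratio of the genes named under each column, by library, minus the mean of the siCTRL libraries. Points are libraries (grey, siCTRL; orange, siMatrin3). The groups do not overlap for E2F8/E2F7, E2F8/RB1 and E2F1/RB1, though they nearly meet for E2F8/E2F7 and E2F1/RB1. They overlap for the 3 ratios of E2F2. The ratios were chosen after the values were seen.

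A change in gene total can hide or accompany a change in the mix of transcripts. RSEM's transcript length, averaged over a gene's transcripts with their abundance as weights, follows that mix. It was tested with limma in 12148 genes, of which 0.00823% (1 gene) passed, and 0 of the 9 genes in that test were called. E2F1 has 1 annotated transcript and could not enter it. E2F6, with 13 annotated transcripts, was the one of the 9 whose groups did not overlap, and the share over all 12148 genes was not computed. It stood at 2117, 2121 and 2219 bases in siCTRL and 2116, 2027 and 2035 bases in siMatrin3 (log2 ratio -0.06, limma adjusted p = 0.825). The siMatrin3 library nearest to siCTRL was less than 1 base below it. E2F2, with 2 transcripts, averaged 4973 ± 153 bases in siCTRL and 4964 ± 166 bases in siMatrin3, and E2F8, with 5, averaged 3177 ± 99.9 and 3222 bases, so neither increase went with a called change in transcript mix. A test that called 1 of 12148 genes, and that misses switches between transcripts of similar length, cannot show that the mix stayed the same.

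Genes whose log2 CPM (counts scaled to library size) profile over the 6 libraries, centred on its mean, lay closest to that of each called gene were then found among 9559 protein-coding genes. For E2F2 these were CDCA5 (root mean square difference 0.0122), NME1 (0.0158) and ZDHHC16 (0.0221). For E2F8 they were URB2 (0.0344), DUSP7 (0.0354) and CCNE1 (0.0373). All 6 were called higher, with log2 fold changes from 0.24 to 0.34. That follows from choosing them for closeness to a called gene, and is not a separate result. Close profiles over 6 libraries also share what the libraries have in common, and NME1 shares exons on the same strand with a readthrough gene.

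The counts of called partners below stand against 5.05% of all genes called higher and 5.97% lower. Of the DP proteins, which pair with E2F1 to E2F6 to bind DNA, TFDP1 was 111 ± 2.66 TPM in siCTRL and 114 ± 3.91 TPM in siMatrin3, and TFDP2 was 29.3 ± 1.30 and 29.1 ± 2.75 TPM. TFDP3 was listed at 0 in every library, and neither tested partner was called. The 3 DP genes were named after their values were seen. DREAM is the complex in which E2F4 and pocket proteins repress cell cycle genes together with MuvB. Of the 10 genes listed for MuvB and DREAM, not all of which encode subunits of DREAM, 1 was called higher and 0 lower (median log2 fold change 0.06). The called gene was MYBL2, the B-Myb factor that replaces E2F4 on MuvB in S phase and is itself a known E2F target. It was 48.6 ± 2.35 TPM in siCTRL and 54.6 ± 1.57 TPM in siMatrin3, a rise of 0.19 on the log2 scale (edgeR adjusted p = 0.0256). Of the 14 subunits of the polycomb complex that holds E2F6, 1 was called higher and 0 lower (median 0.07). It was WDR5, a scaffold protein of several chromatin complexes, at 34.5 ± 0.848 and 38.7 ± 0.828 TPM (log2 fold change 0.19, edgeR adjusted p = 0.0165). Of the 15 chromatin proteins that RB-family proteins recruit, 0 were called higher and 1 lower (median 0.02). SMARCA2, the BRM helicase of SWI/SNF complexes, fell by 0.59 on the log2 scale, with 6.86 ± 0.681 TPM in siCTRL and 4.06 ± 0.540 TPM in siMatrin3 (edgeR adjusted p = 0.000593), whereas its paralogue SMARCA4, named after its values were seen, had a log2 fold change of 0.02. SMARCA2 kept its call when any single library was left out. MYBL2 lost it without siCTRL replicate 1 or 3 or siMatrin3 replicate 2 or 3 (edgeR adjusted p up to 0.103), and WDR5 without siCTRL replicate 3 or siMatrin3 replicate 2 or 3 (edgeR adjusted p up to 0.0698). None of the 12 genes of turnover and dephosphorylation, which are ubiquitin ligase genes, phosphatases and the transcriptional coregulator HCFC1, was called (median 0.01).

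Upstream of the pocket proteins, 17 genes for cyclins, kinases, kinase inhibitors and the phosphatase CDC25A were tested, and 3 were called higher and 4 lower, with a median log2 fold change of 0.00. The cyclin of the next kinase after CDK4 and CDK6, CCNE1, itself an E2F target, rose by 0.34 on the log2 scale (edgeR adjusted p = 0.00219). The inhibitors of CDK4 and CDK6, which keep RB-family proteins active, gave most of the lower calls. CDKN2B (p15) was 13.4 ± 1.07 TPM in siCTRL and 8.84 ± 0.510 TPM in siMatrin3, a log2 fold change of -0.51 (edgeR adjusted p = 0.000343), and CDKN2C (p18) and CDKN2D (p19) fell by 0.51 and 0.32 on the log2 scale. CDKN2A had a log2 fold change of -0.16 without passing the test (edgeR adjusted p = 0.148). The fourth lower call was CDK6, the kinase itself, at 5.71 ± 0.649 TPM in siCTRL and 4.66 ± 0.410 TPM in siMatrin3, a log2 fold change of -0.28 (edgeR adjusted p = 0.0187). CDKN1A (p21), an inhibitor of CDK2, was level at 137 ± 3.64 and 136 ± 12.1 TPM. The remaining higher calls were CCNA2, the S phase cyclin that also binds E2F1, and CDC25A, the phosphatase that activates CDK2, at 0.20 and 0.26. CDKN2A, CDKN2C, CDKN2D, CDKN1A, CCNA2 and CDC25A were named after their values were seen. CCNE1 and CDKN2B kept their calls when any single library was left out. CDK6 lost its call without siMatrin3 replicate 2 or 3 (edgeR adjusted p up to 0.0780), CDKN2D without replicate 1 of either group or siMatrin3 replicate 3 (up to 0.0941), and CDKN2C in 5 of the 6 omissions (up to 0.0793). CCNA2 and CDC25A each lost theirs in 4 of the 6 (up to 0.165 and 0.0938). Leaving out siMatrin3 replicate 3 left 1 higher and 1 lower call in this list, where 292 genes were called higher and 467 lower in all. Leaving out siCTRL replicate 1 or siMatrin3 replicate 1 left 2 lower calls, where 724 and 802 genes were called lower in all.

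**Figure D4:**
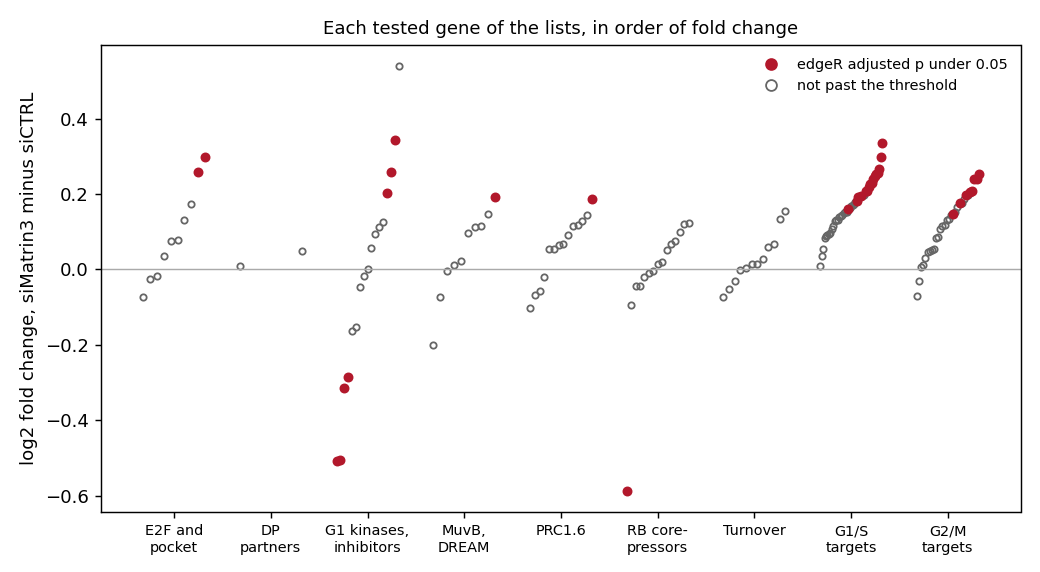
Log2 fold change (siMatrin3 minus siCTRL, edgeR) of each tested gene of the E2F and pocket protein set and of 8 lists around it, in order within each list. Red points are past an adjusted p of 0.05. All 43 tested G1/S targets lie above 0, and the kinase and inhibitor list spreads both ways; its highest open point is CCND2, at 0.04 TPM.

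Targets of E2F lay higher in siMatrin3. Of 44 textbook E2F targets of G1/S and S phase, 43 were matched and tested, 16 were called higher and 0 lower, and all 43 had a positive log2 fold change (median 0.17, against 0.00 over all genes). The top 3 by p were MCM5 (0.30) and MCM6 (0.26), of the replicative helicase, and UNG (0.27), which removes uracil from DNA. Of 30 later targets of DREAM and B-Myb in G2 and mitosis, 8 were called higher and 0 lower, and 28 were positive (median 0.13), with BUB1B (0.24), KIF11 (0.24) and TTK (0.25) first by p. These 6 genes kept their calls when any single library was left out. BUB1B shares exons on the same strand with PAK6. The medians of both target lists lay above that of the 10 E2F and pocket protein genes (0.08). They lay below the changes of E2F2 and E2F8, which were picked out of those 10 because they were called. That replication and mitosis genes were higher was known from these libraries when the lists were made, so the counts are not independent evidence. The number of calls followed the libraries used, and so did the number of higher calls over all genes, which was 847 with all libraries. Without siMatrin3 replicate 2 there were 8 and 3 in the 2 lists and 409 over all genes. Without siMatrin3 replicate 3 there were 10 and 3 (292 over all genes), and without siCTRL replicate 1 there were 10 and 5 (598). Without siCTRL replicate 2 there were 15 and 6 (687), and without siCTRL replicate 3 there were 11 and 3 (301). Without siMatrin3 replicate 1 there were 18 and 14 (587). The medians over the same omissions ran from 0.12 to 0.19 for the G1/S list and from 0.10 to 0.18 for the G2/M list. limma on log2(TPM + 1) called 0 and 1 higher, with medians of 0.13 and 0.10, where it called 81 of 16786 genes higher.

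By library, the mean log2 CPM of the G1/S targets relative to the siCTRL mean was -0.09, 0.04 and 0.04 in siCTRL and 0.12, 0.21 and 0.18 in siMatrin3. Replicate 1 was the lowest of each group, as it was for E2F1 and E2F2. For the G2/M list the values were -0.01, 0.01 and 0.00 in siCTRL and 0.05, 0.16 and 0.15 in siMatrin3. The 10 E2F and pocket protein genes gave -0.02, 0.02 and -0.01 in siCTRL and 0.10, 0.08 and 0.11 in siMatrin3, a smaller and more even shift. Over all 16786 genes tested the values were -0.012, 0.015 and -0.003 in siCTRL and -0.037, -0.026 and -0.030 in siMatrin3. These groups did not overlap either, with siMatrin3 the lower, so groups that lie apart on this measure are not particular to these lists. Levels in bulk RNA do not measure the share of cells in S, G2 or M phase.

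**Figure D5:**
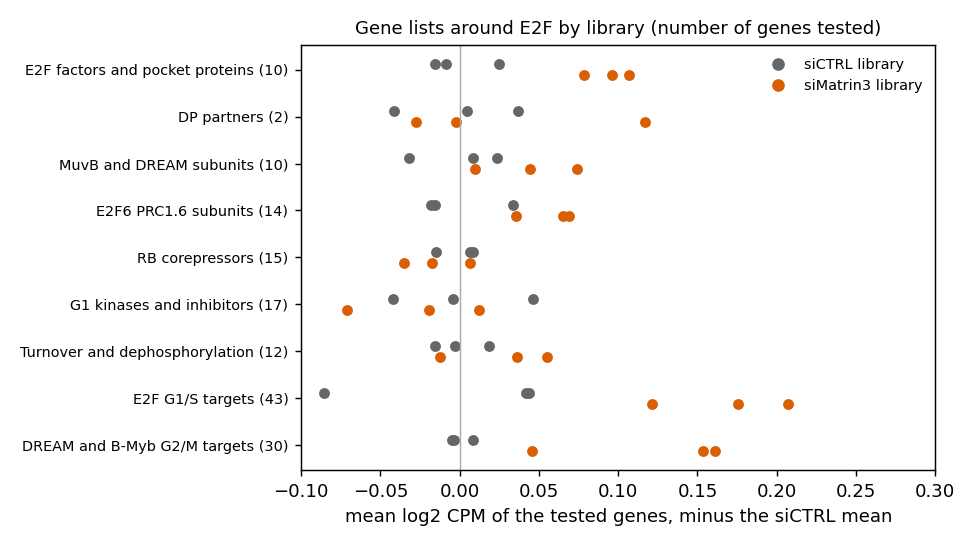
Mean log2 CPM of the tested genes of each list, by library, minus the mean of the siCTRL libraries, with the number of genes tested in brackets. Grey points are siCTRL and orange points siMatrin3 libraries. The 2 groups lie clearly apart for the E2F and pocket proteins and for both target lists, nearly meet for the E2F6 complex, and overlap for the other 5 lists, and siCTRL replicate 1 is the low grey point of the G1/S list at -0.09.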

How the data were processed

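Poly(A) RNA-seq libraries of HCT116 cells, 3 siCTRL and 3 siMatrin3, were grouped by their labels. The libraries were stranded and read in pairs; the strand setting used in counting was not given in the sources used here. The submitters' processing notes name cutadapt, STAR 2.5.1, RSEM and hg19, and the methods give another STAR version. Per the methods, RNA was taken later after the last transfection than the labels say. The authors deposited, for each library, expected counts (reads, including ambiguous ones, assigned by estimation), TPM, which the authors scaled to a common total, and abundance-weighted transcript lengths in bases; deposited FPKM was not used. Symbols were found for 88.3% of genes in the name table, and genes without one took 0.941% of counts. Exon overlaps were read from GENCODE release 44 and promoters from RefSeq.

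In R 4.3.3, edgeR 4.0.16 was run on rounded expected counts with filterByExpr, TMM scaling and its two-sided quasi-likelihood test without covariates, with Benjamini-Hochberg adjustment over 16786 genes. The common biological coefficient of variation was 5.98%, and p-values measure the spread between libraries of a group. Libraries of the same group differed by more than sampling noise (chi-square per degree of freedom 4.71 to 18.5). Transcript lengths were tested with limma 3.58.1 on log2 bases in genes with at least 2 transcripts and 50 expected counts in every library. The study used DESeq2, and DESeq2 1.42.0 was an alternative; the others are given with their effect after this section. The steps were checked on simulated data, in which edgeR recovered 80% of 2-fold changes. It recovered 31% of 1.2-fold changes, about the size of the rise of E2F2, so most changes of that size were missed. It also called 16 unchanged genes, with 16594 genes tested.

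The genes and the 10 lists (167 entries, 2 unmatched) were chosen with earlier results of these data known. Named genes were the 10 E2F and pocket protein genes, MATR3, up to 3 called genes of each list with the smallest p, and the 3 closest profiles of each called gene among protein-coding genes with a mean of at least 5 TPM; others are marked as chosen after their values were seen.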

Additional observations from a re-analysis of the deposited data

How the results depend on the processing

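The 17 alternatives to the edgeR fit changed the scaling (RLE, or upper quartile), the filter on low counts (none, or 1 CPM in at least 3 libraries), the design (the replicate block, each library left out in turn, both groups lacking replicate 1), the model (an offset for transcript length, DESeq2, or limma on TPM with a pseudocount of 1 or 0.1) and the threshold (0.01). Of the resulting 170 values for the 10 genes, 146 kept direction and side of the threshold, 11 lost a call, 4 gained one and 9 changed sign. E2F2 kept its call in 11 alternatives and E2F8 in 12, with log2 fold changes of 0.20 to 0.30 and 0.22 to 0.34 and adjusted p of 0.00012 to 0.291 and 0.000823 to 0.130. The calls gained were those of E2F1 with no filter (adjusted p 0.0121) and under the block (0.0108), and of E2F4 with DESeq2 (0.0339) and under the block (0.0474). The edgeR fit called higher 2 of the 10 genes, 29 of 143 pathway genes and 847 of 16786 genes in all. DESeq2 called 3, 41 and 918 of 15109 genes higher, and no filter gave 3, 44 and 1178 of 29320. With both groups lacking replicate 1 there were 1216 genes called in all (1849 in the edgeR fit), 1 of the 10 genes higher, and 3 pathway genes lower. The length offset left 706 genes, 0 of the 10, and 11 pathway genes higher and 2 lower. limma on log2(TPM + 1) left 323 genes, 0 of the 10, and 2 pathway genes higher and 2 lower, and with a pseudocount of 0.1 it left 235, 0, 1 and 1. An adjusted p under 0.01 left 561, 0, 11 and 2. Leaving out each library gave 759 to 1599 genes in all, 1 to 2 of the 10 higher, and 12 to 39 pathway genes higher and 2 to 4 lower. Upper quartile scaling gave 636 genes higher and 1146 lower, against 847 and 1002. The sign of E2F6 turned to 0.048 with the length offset and to 0.03 and 0.031 with limma, and ran from -0.032 to 0.005 over the omitted libraries. Over the same omissions E2F7 ran from -0.072 to 0.025 and RBL1 from 0 to 0.098, and RBL1 was at -0.003 when both groups lacked replicate 1. The cause of these changes was not tested, apart from the stricter threshold, which calls fewer genes by construction. The weighted length test gave 0 calls among the 10 genes in each of its 9 alternatives.

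The groups share replicate numbers, but same-numbered libraries deviated together with correlations of 0.18, 0.09 and 0.00, and siMatrin3 replicate 3 correlated best with siCTRL replicate 2, so the numbers were not taken as pairs. With the replicate block, 4 of the 10 genes and 50 pathway genes were called higher, and 5 pathway genes lower, out of 2716 genes called.

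Small differences are limited by 3 libraries a group, since the widest 95% interval, that of E2F5, reached from -0.06 to 0.22 on the log2 scale.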
